A study of Mus musculus with 2 samples.

Results

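The chemokine ligand genes were examined in RNA-seq libraries of cultured mouse macrophages. Members were chosen by symbol alone (Ccl or Cxcl with a number, together with Pf4, Ppbp, Cx3cl1 and Xcl1), which gave 41 of the 23444 gene symbols listed and 59 of 31580 transcript rows. They comprise 24 CC ligands, 15 CXC ligands, 1 CX3C ligand and 1 XC ligand. The cells were bone marrow derived macrophages of FVB mice, 1 library from WT animals (RON proficient) and 1 from RON TK-/- animals, which lack the tyrosine kinase of the receptor RON, and both are labelled as given rIL-4 at 10 ng/mL for 72 hours. The labels do not say how many animals contributed to a library. Below, WT and RON TK-/- name these libraries, not the conditions: with 1 library a group no test was possible, no p-value is given, and every difference lacks a replicate check.

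Chemokines are small secreted proteins that bind G protein coupled receptors on leukocytes and guide their movement. The subfamilies are named for the spacing of their first conserved cysteines, which are adjacent in CC ligands and separated by a residue in CXC ligands. Macrophages are a major source of both. Inflammatory signals and interferons are known to induce many of them, while interleukin-4 is known to induce a smaller set in macrophages, among them Ccl24, Ccl17 and Ccl22. By its labels the comparison asks how the macrophage transcriptome under interleukin-4 differs without the RON kinase.

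Values are FPKM, that is, fragments divided by transcript length and by library depth, so levels can be set side by side between genes. A gene was taken as detected with at least 1 FPKM in a library. Ratios are log2 of (FPKM + 1) in RON TK-/- over (FPKM + 1) in WT, which understates differences of low genes, and genes apart by at least 2-fold on it were counted. The coverage implied about 59770193 reads for WT and 67146863 for RON TK-/-. The median log2 ratio of the 11288 detected genes was 0.57, so members are also counted relative to that median. The gene of RON, Mst1r, was listed at 0 in both libraries and so checked neither genotype label. The labelled interleukin-4 treatment was not matched by some of its marker genes in WT. Retnla and Chil3, markers of that response, were listed at 0 in WT and had 3665 and 4604 FPKM in RON TK-/-, and the inflammatory genes Tnf and Nos2 had 1262 and 1100 FPKM in WT against 0.52 and 3.63. The label or the stimulation of the library labelled WT may therefore be wrong, which these files cannot settle. If so, the values below do not compare the genotypes under interleukin-4. Of the ligands named above as induced by interleukin-4, Ccl24 was listed at 0 in WT and had 101 FPKM in RON TK-/-. Ccl22 and Ccl17 went the other way, with 53.2 and 10.4 FPKM in WT against 4.03 and 1.37 in RON TK-/-. Of the macrophage markers 5 of 5 were above 1 FPKM in both libraries (summed FPKM 4434 in WT, 6086 in RON TK-/-). Most of that sum was Lyz2 (3317 and 4651). Mertk was more than 2-fold lower in RON TK-/- (32.5 FPKM in WT, 9.68 in RON TK-/-), and the other markers of the list were within 2-fold. Marker genes of T cells, B cells, eosinophils, mast cells and dendritic cells were below 1 FPKM in both, and so were the 4 neutrophil markers listed, with sums of at most 1.41 FPKM a list and Cd3d, Cd3e, Mpo, Epx and Cpa3 at 0. Endothelial markers reached 1 FPKM in 1 of 4 genes in WT and 2 of 4 in RON TK-/- (summed FPKM 7.53 and 4.44).

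Chemokine ligands made up a larger part of all FPKM in WT, and their makeup differed between the libraries. Summed over the family, WT had 21276 FPKM (4.99% of all FPKM) and RON TK-/- 7891 (1.77%). RON TK-/- had 17 of the 28 detected members lower by 2-fold or more, 4 higher and 7 within 2-fold. Over all detected genes 8.71% were lower and 25.6% higher by the same measure. Set against the overall median, 20 members were lower and 4 higher, against 14.4% and 8.38% of all detected genes. The median ratio of the detected members was -2.88. These counts hold only the members that passed the minimum. Another 3 members (Ccl1, Ccl28 and Ppbp) had under 1 FPKM in both libraries, and 10 were listed at 0 in both (Ccl19, Ccl21a, Ccl21b, Ccl21c, Ccl26, Ccl27b, Cxcl13, Cxcl15, Cxcl17 and Xcl1). In bulk RNA, fewer cells of a type and less RNA per cell cannot be told apart.

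**Figure D1:**
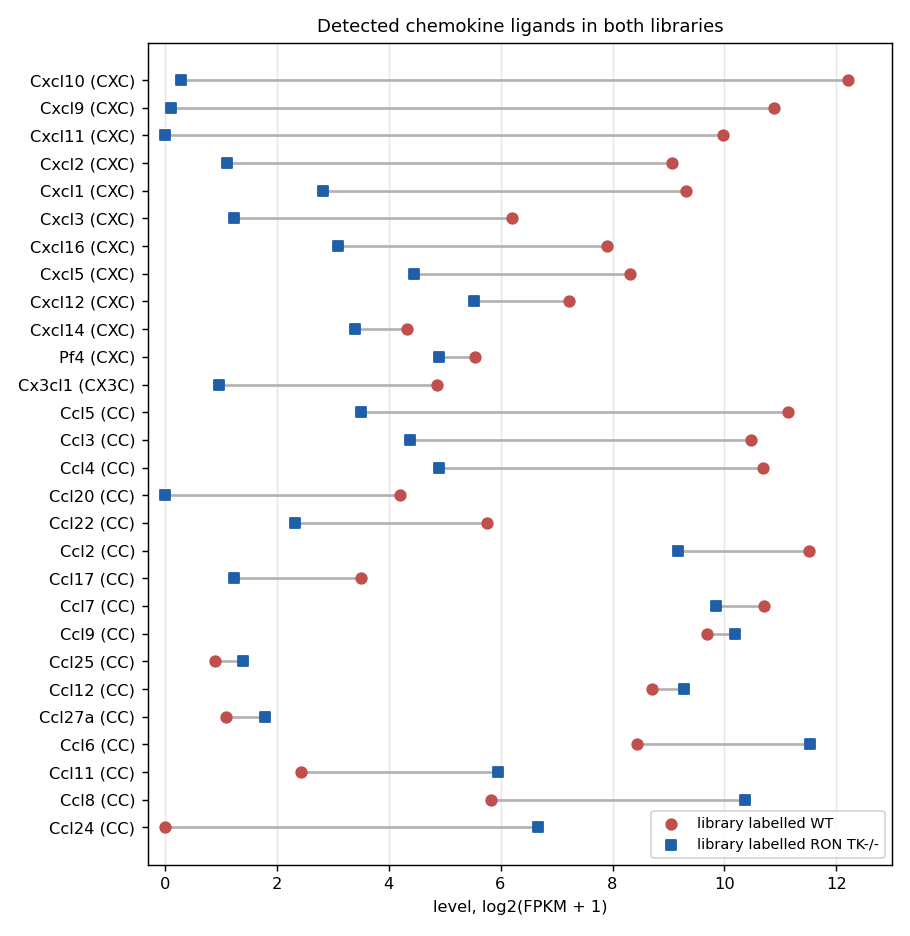
Level of each detected chemokine ligand as log2(FPKM + 1) on the horizontal axis, with circles for the library labelled WT and squares for the library labelled RON TK-/-, 1 library each and no error. The 11 CXC ligands all have the circle to the right, from Cxcl10 (ratio -11.90) to Pf4 (-0.66), while CC ligands run in both directions, from Ccl5 (-7.62) to Ccl24 (6.68).

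The subfamilies differed in direction. All 11 detected CXC ligands had a ratio below 0, 9 of them beyond 2-fold, with a median of -4.97 and a range from -11.90 to -0.66. For these 11 the direction held under each alternative scaling, pseudocount and filter that was tried. A pseudocount or a filter cannot turn a sign, however, and both rescalings moved these ratios further below 0. The settings are therefore no check of the direction. Summed CXC FPKM was 9600 in WT and 121 in RON TK-/-. The 16 detected CC ligands were divided, with 7 at least 2-fold lower, 4 at least 2-fold higher and 5 within 2-fold, and a median of -0.19. Their summed FPKM was 11648 in WT and 7769 in RON TK-/-. CXC ligands thus supplied 45.1% of the family's FPKM in WT and 1.53% in RON TK-/-, and CC ligands 54.7% and 98.5%.

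The leading ligands were different genes in the libraries. In WT the most abundant was Cxcl10, with 22.1% of the family's FPKM and place 4 among all genes, followed by Ccl2 (13.8%), Ccl5 (10.5%), Cxcl9 (8.83%) and Ccl7 (7.89%). In RON TK-/- the most abundant was Ccl6, with 37.2% of the family's FPKM and place 12 among all genes, followed by Ccl8 (16.7%), Ccl9 (14.8%), Ccl7 (11.6%), Ccl12 (7.82%) and Ccl2 (7.33%). The first 5 members reached 63.2% in WT and 88.2% in RON TK-/-. Of those leading 5, Ccl7 was the member found in both libraries.

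**Figure D2:**
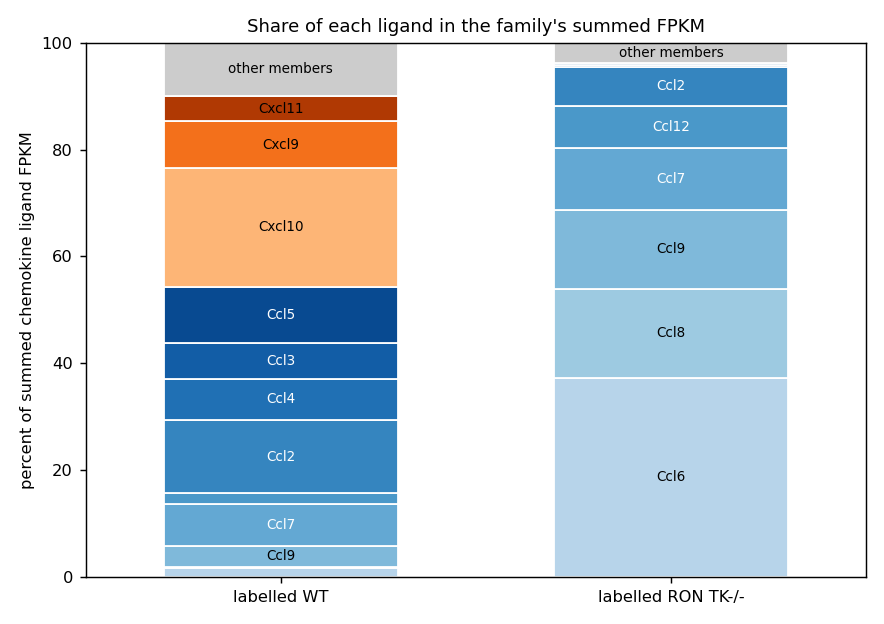
Share of each ligand in the summed chemokine ligand FPKM of each library, in percent, with CC ligands in blue, CXC ligands in orange and the other members in grey. Cxcl10, Cxcl9 and Cxcl11 fill 35.7% of the WT bar and are not visible in the RON TK-/- bar, where Ccl6, Ccl8 and Ccl9 lead.

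The CXCR3 ligands Cxcl9, Cxcl10 and Cxcl11, interferon-induced chemokines that attract activated T cells and natural killer cells, differed most. The promoter of Cxcl10 is shown because it carried the most sequence matches among members with a promoter entry. The sequence is that of RefSeq for GRCm38.p6 (strain C57BL/6J, not FVB), from 250 bases before to 50 bases after the start site, at chr5:92348840-92349139 on the minus strand. Capitals mark matches to the binding consensus of NF-kB (the kB motif) and to the core of the interferon-stimulated response element (GAAA, any 2 bases, GAAA), searched on both strands.
Cxcl10: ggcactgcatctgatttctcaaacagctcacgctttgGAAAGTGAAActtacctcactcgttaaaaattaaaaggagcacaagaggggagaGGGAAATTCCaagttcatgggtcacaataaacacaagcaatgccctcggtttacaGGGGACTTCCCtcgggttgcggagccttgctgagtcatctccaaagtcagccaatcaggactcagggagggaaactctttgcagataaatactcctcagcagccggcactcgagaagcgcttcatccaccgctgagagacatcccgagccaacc
The response element match, GAAAGTGAAA, began 213 bases before the start site. The kB matches began 159 bases before it (GGGAAATTCC) and 104 bases before it (GGGGACTTCC), the latter overlapping another match by all but 1 base. The kB motif was found in 8.46% and the response element core in 3.44% of all 32851 promoters of this length. No match lay in the Cxcl9 window, which says only that these letters are not there, and Cxcl11 had no entry in the promoter table.

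Cxcl10 had 4711 FPKM in WT and 0.23 in RON TK-/-, the latter from about 16 reads, a log2 ratio of -11.90. Cxcl9 had 1879 FPKM in WT and 0.08 in RON TK-/- (about 14 reads), a ratio of -10.77. Cxcl11 had 999 FPKM in WT and was listed at 0 in RON TK-/-, where 3 reads would have given 0.028 FPKM, a limit that covers counting error only. All of this group was thus high in WT and at or near 0 in RON TK-/-. Over all annotated exons, 41.7% of the bases of Cxcl11 overlap a pseudogene on the opposite strand, and 5.91% of those of Cxcl10 overlap Art3. Without strand, reads from these bases cannot be told apart. The longest coding transcript of either ligand shared no stretch of 50 bases with another gene. Art3 itself had 0.10 FPKM in WT and 0.046 in RON TK-/-.

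The CXCR2 ligands Cxcl1, Cxcl2, Cxcl3 and Cxcl5, which attract neutrophils, were the next group. Cxcl1, Cxcl2 and Cxcl3 lie close together on chromosome 5, and their promoters are shown because all carry the same kB sequence. Each line runs from 100 bases before to 50 bases after the start site (RefSeq, GRCm38.p6, plus strand, at chr5:90891145-90891294, chr5:90903799-90903948 and chr5:90786001-90786150), with kB matches in capitals.
Cxcl1: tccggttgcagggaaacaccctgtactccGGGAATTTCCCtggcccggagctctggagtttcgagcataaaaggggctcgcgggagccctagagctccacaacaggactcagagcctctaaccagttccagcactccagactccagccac
Cxcl2: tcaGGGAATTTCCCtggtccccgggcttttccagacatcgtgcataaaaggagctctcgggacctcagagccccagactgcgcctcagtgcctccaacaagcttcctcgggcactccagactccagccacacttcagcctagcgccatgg
Cxcl3: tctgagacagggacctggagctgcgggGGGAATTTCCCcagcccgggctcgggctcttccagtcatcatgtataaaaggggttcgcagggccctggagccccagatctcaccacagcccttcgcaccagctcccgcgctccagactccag
The run GGGAATTTCCC, which holds a kB match on each strand, began 71 bases before the start site in Cxcl1, 97 bases before it in Cxcl2 and 73 bases before it in Cxcl3.

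Cxcl2 had 535 FPKM in WT and 1.16 in RON TK-/-, a log2 ratio of -7.96. Cxcl1 had 634 and 6.08 FPKM in the same order, a 104-fold difference. Cxcl3 had 73.1 and 1.36 FPKM, a 53.8-fold difference. Cxcl5, a related ligand that was the most abundant of the group in RON TK-/-, had 318 and 20.9 FPKM, a 15.3-fold difference. Proportions within the group differed, with 1.18 times as much Cxcl1 as Cxcl2 in WT and 5.27 times as much in RON TK-/-. Ppbp of the same group had 0.096 FPKM in WT and 0.36 in RON TK-/-, and Cxcl15 was listed at 0 in both. Transcripts of Cxcl2 and Cxcl3 share 61 stretches of 50 bases (3.37% and 6.31% of those in each), so a small part of their reads could have been assigned to either.

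The other CXC ligands were lower in RON TK-/- by less, with Cxcl16 as an exception. Cxcl16, a membrane-bound ligand that is released by shedding, had 238 FPKM in WT and 7.51 in RON TK-/-, a 31.7-fold difference. About 18.3% of its exon bases overlap Zmynd15 on the opposite strand. Cxcl12, which holds haematopoietic cells in the marrow through CXCR4, had 148 and 45.2 FPKM, a 3.27-fold difference. Its listed transcripts kept similar proportions, with 70.8% and 74.2% of its FPKM in the shortest and 27.7% and 23.7% in the middle-length one. Cxcl14 had 19.0 FPKM in WT and 9.54 in RON TK-/-, and Pf4, platelet factor 4, had 45.9 and 28.7. Both lay within 2-fold as deposited and were past 2-fold lower when set against the overall median.

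Cxcl12 and Cxcl14 are also made by stromal cells, and stromal markers were present. All 5 fibroblast and stromal markers were above 1 FPKM in both libraries, with a summed FPKM of 669 in WT and 892 in RON TK-/-, and none was at 0. Col1a1 had 195 and 250 FPKM, and Pdgfra had 8.93 and 24.3. Their part in the levels of Cxcl12, Cxcl14 and Ccl11 was not tested. Of 6 megakaryocyte and platelet markers, which bear on Pf4, only the integrin gene Itgb3 reached 1 FPKM (3.93 in WT, 26.5 in RON TK-/-). Gp9 and Tubb1 were at 0 in both libraries and Itga2b was at 0.044 and 0.039.

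Among the CC ligands, the inflammatory ligands of the second chromosome 11 cluster went in opposite directions. Ccl5, Ccl3 and Ccl4, which attract monocytes and T cells, were far lower in RON TK-/-. Ccl5 had 2243 FPKM in WT and 10.4 in RON TK-/-, a 216-fold difference. Ccl3 had 1421 and 19.9 FPKM, a 71.3-fold difference, and Ccl4 had 1643 and 28.8, a 57.0-fold difference. Ccl6 and Ccl9, rodent ligands of CCR1, did not share this pattern. Ccl6 had 347 FPKM in WT and 2938 in RON TK-/-, 8.47-fold higher in the latter. Ccl9 had 827 and 1166 FPKM, a ratio of 0.49 that lay below 0 (-0.07) when set against the overall median, so that its direction depended on the scaling.

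The monocyte attractants that bind CCR2 were abundant in both libraries. Ccl2 had 2930 FPKM in WT and 578 in RON TK-/-, a 5.07-fold difference. Ccl7 had 1678 and 917 FPKM, a ratio of -0.87, within 2-fold as deposited and past it when set against the overall median. Ccl12 had 414 and 617 FPKM, a ratio of 0.58 that equalled the median of all detected genes to within 0.01. The ratio of Ccl2 to Ccl12 FPKM was 7.08 in WT and 0.937 in RON TK-/-.

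The 4 members that were higher in RON TK-/- were all CC ligands, namely Ccl24, Ccl8, Ccl11 and Ccl6. The promoters of Ccl8 and Ccl6 are shown because these were the most abundant of the 4. They held no match to the motifs searched, as did 5 of the 11 lower members with a promoter (Ccl3, Ccl22, Cx3cl1, Cxcl9 and Cxcl12), which says only that these letters are not in these windows. They are RefSeq sequences of GRCm38.p6, at chr11:82114935-82115234 on the plus strand and chr11:83593038-83593337 on the minus strand.
Ccl8: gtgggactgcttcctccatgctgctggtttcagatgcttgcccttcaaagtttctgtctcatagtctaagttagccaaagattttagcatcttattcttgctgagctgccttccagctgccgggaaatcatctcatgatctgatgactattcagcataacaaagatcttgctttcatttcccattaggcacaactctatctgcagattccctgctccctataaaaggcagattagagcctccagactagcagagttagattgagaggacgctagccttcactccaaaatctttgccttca
Ccl6: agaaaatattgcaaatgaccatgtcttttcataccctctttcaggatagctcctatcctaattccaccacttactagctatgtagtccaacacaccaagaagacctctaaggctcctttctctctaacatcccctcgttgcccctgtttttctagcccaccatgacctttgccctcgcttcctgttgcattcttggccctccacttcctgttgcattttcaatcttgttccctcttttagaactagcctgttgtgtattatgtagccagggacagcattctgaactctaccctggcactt
The motifs were kB, the response element core, and the STAT sites TTCNNNGAA and TTC with GAA after a gap of 4 bases, the latter the spacing that STAT6 prefers. Ccl24 and Ccl11 had no entry in the promoter table.

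Ccl8, a ligand of CCR8 in mice, had 55.8 FPKM in WT and 1321 in RON TK-/-, 23.6-fold higher. The eotaxins, which attract eosinophils through CCR3, were both higher. Ccl24 was listed at 0 in WT, where 3 reads would have given 0.039 FPKM, and had 101 FPKM in RON TK-/-, from about 8730 reads. Ccl11 had 4.44 FPKM in WT and 60.9 in RON TK-/-, a 13.7-fold difference. The remaining eotaxin, Ccl26, was listed at 0 in both libraries. Ccl1, the other CCR8 ligand, had 0.40 FPKM in WT and 0.19 in RON TK-/-.

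The CCR4 ligands Ccl22 and Ccl17, which attract regulatory and helper T cells, were lower in RON TK-/-. Ccl22 had 53.2 FPKM in WT and 4.03 in RON TK-/-, a 13.2-fold difference. Ccl17 had 10.4 and 1.37 FPKM, a 7.59-fold difference. Ccl24, named above with them, had the opposite direction in these libraries. Ccl17 and Ccl22 are also made by dendritic cells, whose 3 markers summed to 1.41 FPKM in WT and 0.55 in RON TK-/-, with Flt3 at 0.041 and 0, and their part in the result was not tested. Cx3cl1 (fractalkine), which lies between them on chromosome 8, had 28.3 FPKM in WT and 0.96 in RON TK-/-, a ratio of -3.90. Ccl20, the ligand of CCR6, had 17.3 FPKM in WT and was listed at 0 in RON TK-/-, where 3 reads would have given 0.056 FPKM.

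The CC ligands that serve steady-state homing were at or near the detection limit. Ccl25, the ligand of CCR9, had 0.86 FPKM in WT and 1.64 in RON TK-/-. Ccl27a, a skin ligand of CCR10, had 1.14 and 2.47 FPKM, spread over 4 listed transcripts, and 66.4% of the 50-base stretches of its longest transcript also occur in other genes. Values for Ccl21b (100%), Ccl27b (98.1%), Ccl21a (71.6%) and Ccl19 (59.1%) are uncertain for the same reason, since reads of 50 bases could not be placed in 1 gene. Ccl28 was listed at 0 in WT and at 0.15 FPKM in RON TK-/-.

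By position, 32 members lay in 7 clusters, taken as members of a chromosome with under 500 kb between neighbours, and 9 stood alone. All coordinates are of the mm10 build. In the CXC clusters the detected members all had ratios below 0. The cluster of Cxcl9, Cxcl10 and Cxcl11 spans 42.0 kb on chromosome 5, from 92321331 to 92363296. The cluster of Cxcl5, Pf4, Cxcl3, Cxcl1 and Cxcl2 spans 147 kb on the same chromosome, from 90759298 to 90905938, and its ratios ran from -7.96 (Cxcl2) to -0.66 (Pf4). Pf4 sits 12.7 kb from Cxcl3, whose ratio was -4.97.

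The CC clusters on chromosome 11 held neighbours with opposite directions. The first spans 144 kb, from 82035577 to 82179812, in the order Ccl2, Ccl7, Ccl11, Ccl12, Ccl8 and Ccl1, with ratios of -2.34, -0.87, 3.51, 0.58 and 4.54 for the 5 detected members. Its summed FPKM was 5083 in WT and 3494 in RON TK-/-. The second spans 139 kb, from 83525779 to 83664683, in the order Ccl5, Ccl9, Ccl6, Ccl3 and Ccl4, with ratios of -7.62, 0.49, 3.08, -6.09 and -5.79. Its summed FPKM was 6482 in WT and 4163 in RON TK-/-. Ccl6, higher in RON TK-/-, lies 54.8 kb from Ccl3 and 9.25 kb from Ccl9. Together these clusters supplied 54.4% of the family's FPKM in WT and 97.0% in RON TK-/-.

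In the remaining clusters, Ccl22, Cx3cl1 and Ccl17 occupy 66.4 kb of chromosome 8, from 94745684 to 94812036, and all 3 were lower in RON TK-/-. Ccl24 and Ccl26 lie 6.37 kb apart on chromosome 5, and Ccl24 alone was detected. The cluster of Ccl27a, Ccl27b, Ccl19 and the Ccl21 copies on chromosome 4 had 1 detected member, Ccl27a.

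**Figure D3:**
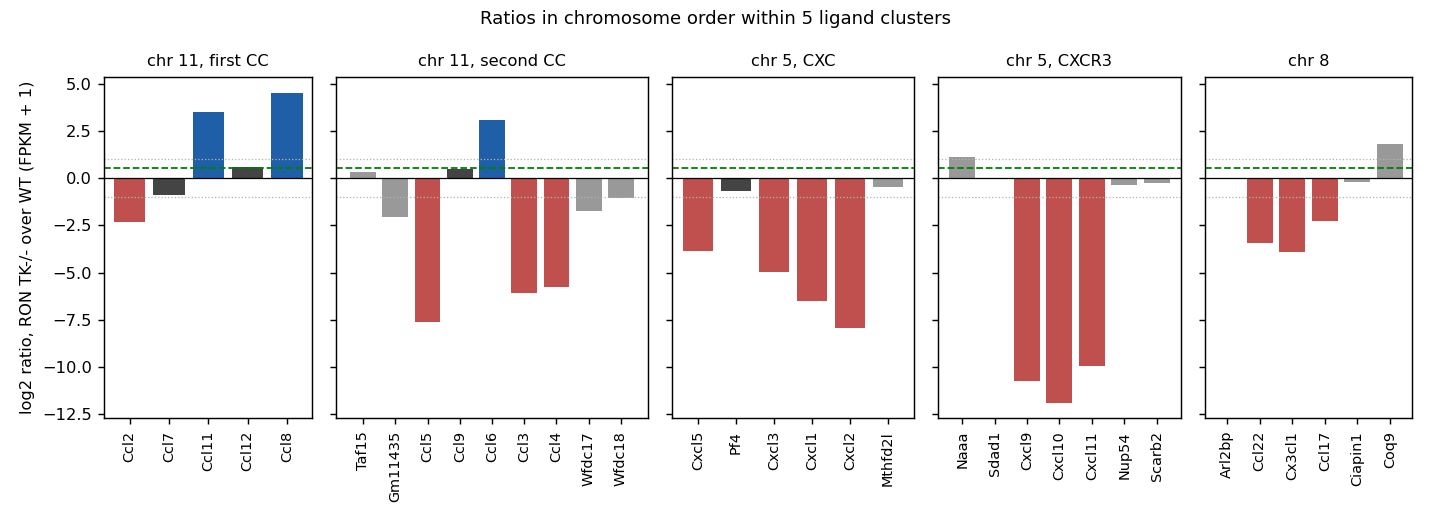
Log2 ratio of RON TK-/- over WT on FPKM + 1 (vertical axis) for detected genes of 5 clusters in chromosome order, 1 library each and no error. Blue and red bars are ligands at least 2-fold higher or lower, dark bars ligands within 2-fold, grey bars detected genes beside the cluster, dotted lines 2-fold and the dashed line the median of all detected genes (0.57). Neighbouring CC ligands of chromosome 11 point both ways, while ligands of the other 3 clusters all lie below 0.

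Genes that lie within the clusters or are among the nearest on either side were taken for comparison. Of 20 such detected genes 11 were within 2-fold, 6 were higher and 3 were lower in RON TK-/-, where 25.6% of all detected genes were higher and 8.71% lower, and nothing is read from so few genes. Beside the CXCR3 ligands, Sdad1 had 5.44 FPKM in WT and 5.52 in RON TK-/-, Nup54 had 18.1 and 14.0, and Naaa, 1 of the 6 higher genes, had 8.22 and 19.2. Hip1, Coq9, Il11ra1 and E230016K23Rik were also among the higher genes. The 3 lower genes all lie beside the second chromosome 11 cluster. They were Wfdc17, a secreted whey acidic protein family gene, with 1212 and 364 FPKM, Wfdc18 with 1.83 and 0.38, and Gm11435 with 3.09 and 0.

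Receptors and processing genes were described next. Of 30 receptors, atypical receptors and ligand processing genes 11 were detected, 4 at least 2-fold lower and 1 at least 2-fold higher in RON TK-/- (8.71% and 25.6% over all detected genes), with a median ratio of -0.61. Set against the overall median the counts were 6 and 1 (14.4% and 8.38% over all detected genes). Cxcr4, the receptor of Cxcl12, had 1.63 FPKM in WT and 38.8 in RON TK-/-, a 23.8-fold difference whose direction was opposite to that of its ligand. Ccr1, which binds Ccl6 and Ccl9, had 38.4 and 57.2 FPKM, within 2-fold. Ackr3, an atypical receptor that takes up Cxcl12, had 8.18 and 13.1 FPKM.

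Ccrl2, a receptor-like protein that binds chemerin and does not signal as a chemokine receptor, had 1139 FPKM in WT and 1.91 in RON TK-/-. Cxcr3, the receptor of Cxcl9 to Cxcl11, had 2.14 and 0.25 FPKM, about 200 and 28 reads. Receptors for several abundant ligands were below 1 FPKM in both libraries, among them Ccr2 (0 in WT, 0.14 in RON TK-/-), Cxcr2 (0.32 and 0.25), Ccr3 (0.14 and 0.052) and Ccr4 (0.12 and 0), while Ccr8 was listed at 0 in both.

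Among the proteases that release or trim chemokines, Adam10 had 40.2 FPKM in WT and 54.1 in RON TK-/- and Adam17 had 66.7 and 43.4. These shed Cxcl16 and Cx3cl1 from the cell surface, and both lay within 2-fold as deposited. Set against the overall median, Adam17 was past 2-fold lower (-1.17) and the sign of Adam10 turned (-0.14). Mmp9 had 58.8 and 14.2 FPKM and Mmp14 had 97.4 and 25.7, a 4.15-fold and a 3.79-fold difference. Mmp12, the macrophage elastase, was the most abundant of them, with 1081 and 562 FPKM. Mmp2 had 15.1 and 22.2, and Dpp4, which trims the amino end of many chemokines, was below 1 FPKM in both.

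**Figure D4:**
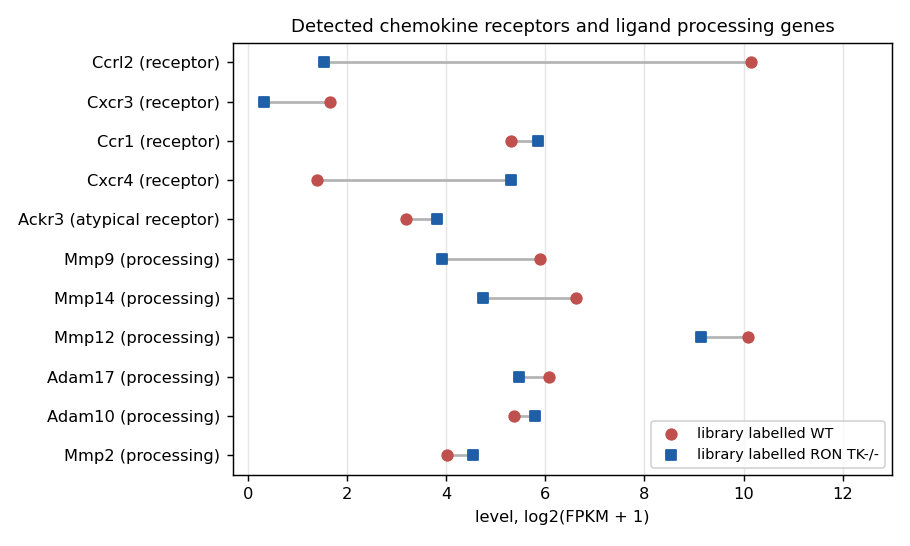
Level of each detected chemokine receptor, atypical receptor and ligand processing gene as log2(FPKM + 1), with circles for the library labelled WT and squares for the library labelled RON TK-/-, 1 library each and no error. Cxcr4 lies further right in RON TK-/-, Ccrl2 spans the widest gap (ratio -8.61), and Adam10, Adam17 and Ccr1 lie within 2-fold.

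Promoters were available for 19 detected members. The kB motif was present in 7 of them, of which 5 were lower in RON TK-/- (Cxcl1, Cxcl2, Cxcl3, Cxcl10 and Ccl20, of 11 lower members with a promoter) and 2 were within 2-fold (Ccl9 and Ccl27a, of 6). Neither of the 2 higher members with a promoter, Ccl6 and Ccl8, held it. Cxcl1, Cxcl2 and Cxcl3 lie close together and carry the same kB sequence, so their matches are not independent. The match of Ccl27a lay 30 bases after its start site. A member with several promoter entries was counted once, if any of them held a match. Counted by entry instead, 10.5% of the promoters of all detected genes held a kB match. The response element core was found in Cxcl10 and Cxcl14, TTCNNNGAA in Ccl17 and Cxcl14, and the STAT6 spacing in Ccl17 alone, 154 bases before its start site. In that order, 3.32%, 7.07% and 5.43% of the promoters of all detected genes held these motifs, counted by entry. Nothing is read from so few matches. These matches describe the reference sequence, not binding in these cells.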

How the data were processed

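RNA from 2 libraries, 1 per group, was measured by single-end sequencing with reads of 50 bases. The authors deposited FPKM values per RefSeq transcript, with a table for each library that is named for Cufflinks. Per the file headers, coverage was deposited beside them, and it was read as mean depth per base. Submitters' processing notes name mm10 and DESeq, without version or role, while aligner, annotation release and strand use were not given in the sources used here.

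FPKM were summed per symbol. Ratios used a pseudocount of 1 and a minimum of 1 FPKM in either library, in Python 3.11.15 with pandas 2.3.3. Estimated reads are coverage times length over read length, not counts, so no count model was run. Fold values without a pseudocount are given where both libraries had at least 1 FPKM. The ratio step was tested on simulated data with planted fold differences. That simulation left out low genes and had no spread between replicates, so it does not bear on either. Locus starts, counted from 0 in the files, are printed counted from 1. Promoters are those of RefSeq (29 of 41 members matched), and transcripts for the 50-base comparison and exon overlaps are GENCODE M21, of the same assembly as mm10. Every detected member is named. Of the receptors and processing genes, those apart by 2-fold and the most abundant of the others are named, and further ones were added after their values were seen. A receptor and a B cell marker of these lists are not reported here and are left out of the counts.

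Counts and medians of ligands, receptors and processing genes, and the ratios of named genes, were recomputed with pseudocounts of 0.1 and 5, without the minimum or with 5 FPKM, after centring on the median ratio, as TPM, from the top transcript of each gene, and at a 4-fold threshold, and clusters with gaps of 100 kb and 2 Mb. Shares, summed FPKM, neighbours and sequence counts were not. Members, gene lists and motifs were chosen with earlier results of these data known.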

Additional observations from a re-analysis of the deposited data

How the results depend on the processing

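The counts of ligands, of CC and of CXC ligands called higher or lower stayed within 1.5 times under the 8 alternatives, and the clusters numbered 7 within 100 kb and 5 within 2 Mb against 7. The lower ligands numbered 16 to 20 and the higher ones 4 or 5, the fifth being Ccl27a with a pseudocount of 0.1. Medians moved with low values. The CXC median was -5.65 with a pseudocount of 0.1, -4.28 with 5 and -3.87 with no filter. The median of all ligands was -2.25 with a pseudocount of 5, -0.24 with no filter and -3.65 with a 5 FPKM minimum, and the CC median -1.57 with that minimum and 0 with no filter. With a 4-fold threshold 1 receptor or processing gene was lower, Ccrl2. Cxcr3 was within 2-fold with a pseudocount of 5 (-0.44). Signs differed between settings for 5 of 39 genes, namely Ccl9, Ccl25, Ccr1, Adam10 and Mmp2, each below 0 after centring on the median ratio. No paired analysis was possible because each group has 1 library. Depth limits the values under about 0.1 FPKM, which rest on few reads, and the spread between animals or cultures is unknown.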

Other observations

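The 3' untranslated regions of the members were also read, for the AU-rich pentamer ATTTA and its extended form TTATTTAT, elements known to bind the decay factor that Zfp36 encodes. The regions are the longest of each gene in GENCODE M21. The extended form was found in 6 of 28 detected members, and in 14.8% of 10474 detected genes with such a region. The 6 were Cxcl2 with 5 copies, Cxcl1 with 3, and Cxcl3, Ccl4, Ccl20 and Cx3cl1 with 1 each. All 6 are among the 17 members that were at least 2-fold lower in RON TK-/-. None of the 4 higher members and none of the 7 within 2-fold held it, and nothing is read from so few genes. The lower members also had longer regions, with a median of 1050 bases against 751 in higher members and 435 in those within 2-fold. For the pentamer the order depended on the measure, with 2.87 per kb in lower and 3.45 per kb in higher members. Its median count per gene was 3 in lower and 2 in higher members. Among the higher members Ccl24 and Ccl8 held no pentamer. Cxcl9, Cxcl10, Cxcl11 and Ccl5, which had the lowest ratios beside Cxcl2, held no copy of the extended form. Of these, Cxcl9, Cxcl10 and Cxcl11 did hold the pentamer. The pentamer occurred 2.89 times per kb in detected members and 1.84 times per kb in all detected genes. The members share clusters and ancestry, so these counts are a description of the reference sequence, and no relation to the levels was tested.

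The deposited tables split Cxcl11 in WT nearly evenly between its coding transcript (494 FPKM) and a non-coding one (505 FPKM) (1585 and 1604 bases long), so the split between them is uncertain at 50 bases a read. Ccl20 in WT had 13.1 and 4.22 FPKM in transcripts of 802 and 799 bases.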
